A study of Canis lupus familiaris with 15 samples.

Results

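The genes CA6, KLK1, TFF3, SLPI, SPINT2 and REG3A code for proteins that gland and mucosal epithelium releases or carries, and their RNA was followed over 15 samples of 5 dogs with lymphoma. The 6 genes are 6 of the 1357 genes that the array's RefSeq identifiers name, and they are measured by 11 of 43603 probes, 1 for TFF3 and 2 for each of the others. They were chosen from their levels on these arrays, since 2 samples of the dog Rosco stand out for them, so the contrast of those 2 samples with the other 13 is given below as a description with no test. REG3A does not share that pattern. It was not well above background on either of the 2 samples, and its signal was high in other samples of the same dog.

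All 15 samples are total RNA of Canis lupus familiaris, each on 1 one-colour Agilent array. The tumour samples are from lymphoma and were taken first by biopsy and later by fine needle aspirate, and per the labels' protocols an RNA integrity minimum was set before labelling. From Rosco came the biopsy of the original drug resistant tumour, a second original drug resistant tumour taken by aspirate, an aspirate after failed chemotherapy and before metformin, an aspirate in remission after metformin, 3 aspirates after relapse that also followed metformin, a tumour sample taken after death, and skin. From MalcolmX came an aspirate of the resistant tumour after metformin, the biopsy of the original resistant tumour, and skin. Jake and Dog Y gave 1 biopsy each of an original resistant tumour, and Thai gave 1 biopsy of an original drug sensitive tumour. The label fields of the Rosco and Dog Y biopsies differ in kind, 1 giving drug resistance and the other a sampling time before treatment. The control tissue is skin, not lymph node, and no label gives the age, breed or sex of the dogs or the drugs of the chemotherapy beyond a sample title that names CHOP.

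As background, exocrine glands such as the salivary, lacrimal and sweat glands move fluid and proteins through ducts to a surface, where carbonic anhydrase buffers, kallikrein cleaves peptides, trefoil peptides protect mucus-covered epithelium and protease inhibitors limit tissue damage. CA6 is the secreted carbonic anhydrase of saliva, and KLK1 is tissue kallikrein, a serine protease that frees kinins. TFF3 is a trefoil peptide of mucosal surfaces, SLPI is a secreted inhibitor of leukocyte proteases, and SPINT2 is a Kunitz-type inhibitor of serine proteases on epithelial cells. REG3A is a secreted C-type lectin, known from pancreas and gut as an antimicrobial protein.

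Levels below are log2 processed signals minus the 75th percentile of the array, so that 0 is the level of a bright probe, and a difference of 1 is 2-fold. A probe is called well above background where the scanner software flagged it so, and the dimmest such probes lay between −6.86 and −5.50 over the arrays. Between 66.7% and 75.9% of probes were well above background on each array. The 2 Rosco samples lacked the main B cell marker. MS4A1, the CD20 antigen of B cells, was at −7.16 in the biopsy and −6.73 in the second resistant aspirate, not well above background in either, against a median of 2.18 over the other 13. The other sample without it was the skin of Rosco, at −8.04. The 4 named genes of a B cell list had a summed level (log2 of their summed signals) of −0.91 to −0.39 in the 2 samples, against −0.54 to 5.35 in the other 13. The 2 samples sat on different slides read on different scan days. Their levels correlated at r = 0.984 over 36460 targets, a description over probes that share the array design, against 0.992 between the first 2 relapse aspirates. In bulk RNA, fewer cells of a type and less RNA per cell cannot be told apart.

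**Figure D1:**
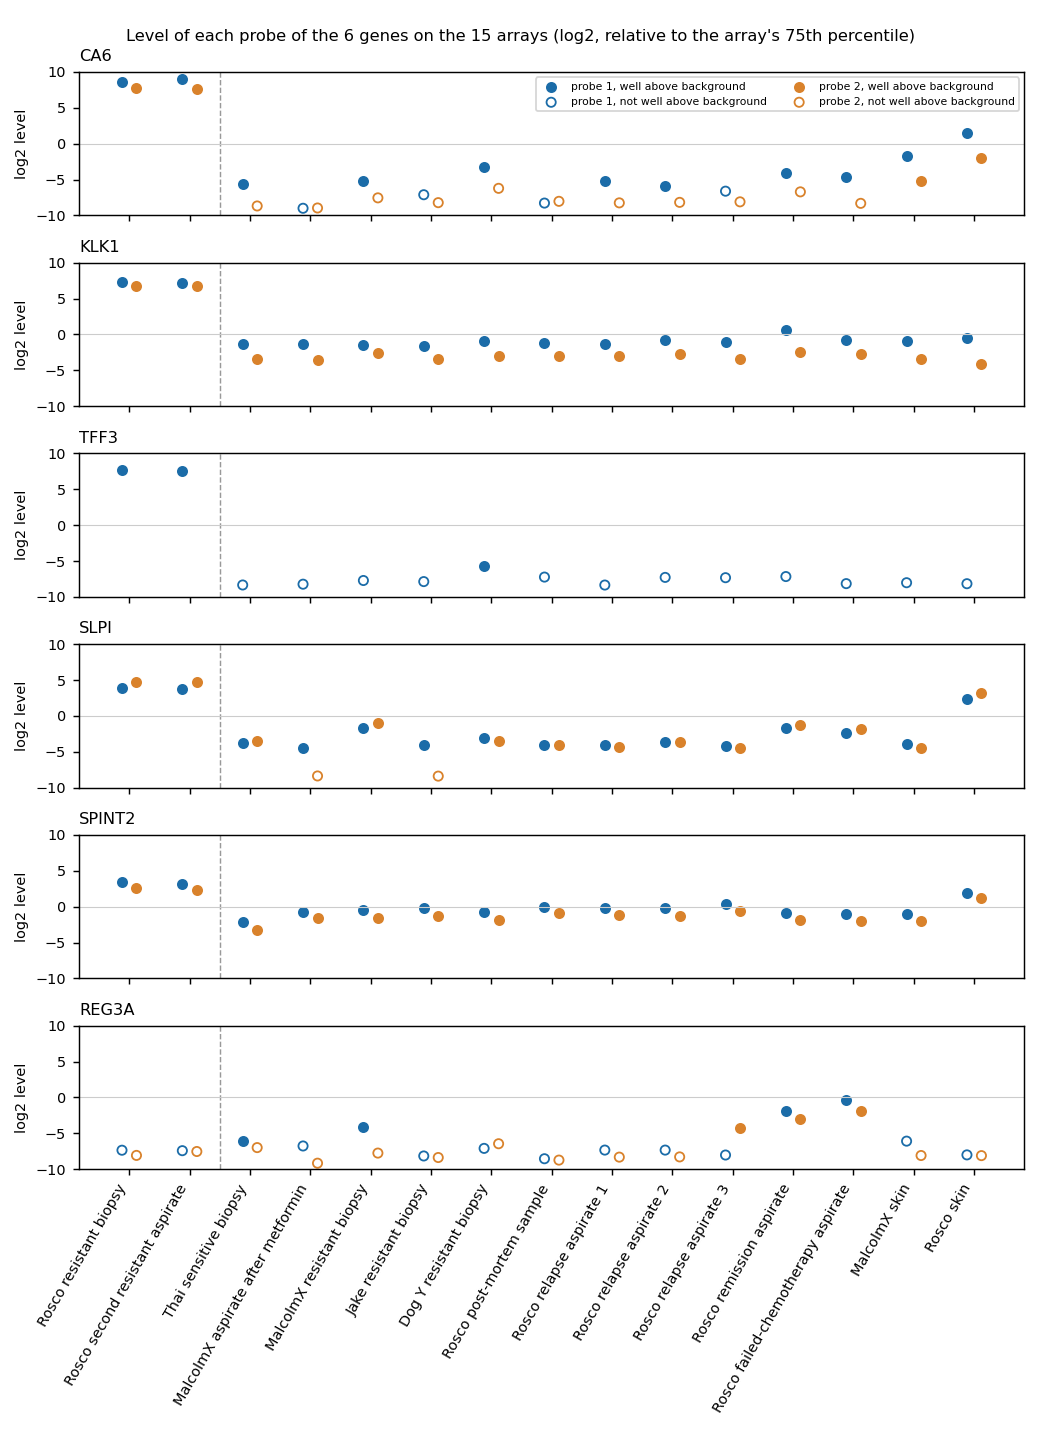
Level of each probe of the 6 genes (log2, relative to the 75th percentile of the array) on the 15 arrays, in 1 panel per gene. Blue is the first probe and orange the second, filled points are well above background and open points are not, and the dashed line parts the 2 Rosco samples from the other 13. CA6, KLK1 and TFF3 sit at 6.70 or above in the 2 samples, and REG3A is open there and filled in the failed-chemotherapy and remission aspirates.

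CA6 stood at 8.59 in the Rosco biopsy and 8.99 in the second resistant aspirate. The skin samples had 1.45 in Rosco and −1.75 in MalcolmX. The other biopsies had −5.66 in Thai, −5.14 in MalcolmX, −3.29 in Dog Y and −7.11 in Jake, where CA6 was not well above background. CA6 thus had 1 high pair of tumour samples, an intermediate pair that is skin, and low values in the other tumours. The remaining Rosco samples ran from −8.28 after death, through −6.62, −5.90 and −5.19 in the relapse aspirates, to −4.68 in the failed-chemotherapy aspirate and −4.05 in the remission aspirate. The MalcolmX aspirate after metformin read −9.00. CA6 was not well above background in that aspirate, in the post-mortem sample or in relapse aspirate 3, so these values have no order. The 2 Rosco samples averaged 8.79 ± 0.28 (SD, n = 2), which is 7.34 above the Rosco skin, or 162-fold. The second CA6 probe had 7.72 and 7.68 in the 2 samples and was well above background elsewhere only in skin, at −1.94 in Rosco and −5.15 in MalcolmX. By group mean CA6 ranked from the 2 Rosco samples to skin (−0.15 ± 2.26, n = 2), the earlier Rosco aspirates (−4.37 ± 0.45, n = 2), the resistant biopsies of MalcolmX, Jake and Dog Y (−5.18 ± 1.91, n = 3) and the relapse aspirates (−5.90 ± 0.72, n = 3), and the last 3 groups lay within 1 SD of the biopsies' mean. The means of the biopsies and of the relapse aspirates each include a sample not well above background.

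KLK1 was bright in the same 2 samples and flat over the rest. It had 7.29 in the Rosco biopsy and 7.22 in the second resistant aspirate, against −1.63 to 0.61 in the other 13. The highest of the 13 was the remission aspirate, and the mean of the 2 Rosco samples lay 6.64 above it (99.9-fold). The Rosco skin was at −0.55 and the MalcolmX skin at −0.91, so KLK1, unlike CA6, SLPI and SPINT2, did not set the 2 skins apart. The second probe repeated the step, with 6.80 and 6.70 in the 2 samples and −4.15 to −2.38 in the others. Both KLK1 probes were well above background on all 15 arrays, yet over the 13 other arrays they correlated at only r = 0.30, so the small differences among those samples depend on the probe. Group means were −0.09 ± 0.99 in the earlier Rosco aspirates (n = 2), −0.73 ± 0.25 in skin (n = 2), −1.04 ± 0.24 in the relapse aspirates (n = 3) and −1.36 ± 0.37 in the 3 other resistant biopsies. Skin and relapse aspirates differed by more than either SD, and the other neighbours in this order by less than the larger of their SDs.

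TFF3 gave the largest step of the 6 genes. It had 7.74 in the Rosco biopsy and 7.59 in the second resistant aspirate. Among the other 13 samples it was well above background only in the Dog Y biopsy, at −5.67, and the rest read −8.34 to −7.15. The mean of the 2 Rosco samples was 13.33 above Dog Y, a 10326-fold difference between signals, of which the lower one is near background. Both skin samples lacked a TFF3 signal above background, at −8.01 in MalcolmX and −8.15 in Rosco. TFF3 has a single probe, so its level rests on 1 sequence.

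SLPI was high in 3 samples. It had 3.87 in the Rosco biopsy and 3.79 in the second resistant aspirate, and the Rosco skin came next at 2.32, 1.51 below their mean (2.84-fold). The MalcolmX biopsy was at −1.67, the remission aspirate at −1.71 and the failed-chemotherapy aspirate at −2.40. The remaining 9 samples, the MalcolmX skin among them at −3.95, ran from −4.42 to −3.07. The second SLPI probe gave the same order at the top, with 4.78 and 4.73 in the 2 Rosco samples and 3.16 in the Rosco skin, but was not well above background in the Jake biopsy or the MalcolmX aspirate, where the first probe was. The 2 skins thus stood far apart, and their mean of −0.82 carries an SD of 4.43 (n = 2).

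SPINT2 had the narrowest range of the 5 genes that share the pattern. It had 3.43 in the Rosco biopsy and 3.13 in the second resistant aspirate, against 1.94 in the Rosco skin, 1.34 below their mean (2.53-fold). The other 12 samples lay between −2.15 in the Thai biopsy and 0.45 in relapse aspirate 3, and all were well above background. Its 2 probes correlated at r = 0.99 over the 13 other arrays. The smallest differences of SPINT2 still depended on the probe, as the post-mortem sample minus the relapse aspirates gave −0.07 and 0.19. For all 5 genes the 2 Rosco samples differed from each other by 0.40 or less.

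REG3A followed other samples. Its first probe was at −7.35 in the Rosco biopsy and −7.41 in the second resistant aspirate, not well above background in either. It was brightest in the failed-chemotherapy aspirate at −0.41 and the remission aspirate at −1.87, followed by the MalcolmX biopsy at −4.12 and the Thai biopsy at −6.06, the only 4 samples where it was well above background. The second probe was brightest in the same 2 aspirates, at −1.90 and −2.93, but its only other sample above background was relapse aspirate 3 at −4.29. Those values of MalcolmX, Thai and relapse aspirate 3 therefore rest on 1 probe each. In skin neither probe was above background. REG3A correlated with the mean profile of the 6 genes at r = 0.03 over 15 arrays, and CA6, KLK1, TFF3, SLPI and SPINT2 at 0.84 to 0.96, a property of how they were chosen.

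Over all targets well above background on both Rosco samples, the 2 samples were above each of the other 13 for 2821 of 23933 (11.8%), and over 2-fold above each for 1059 (4.42%). Among named genes the shares were 141 of 1028 (13.7%) and 61 of 1028 (5.93%). CA6, KLK1, TFF3, SLPI and SPINT2 are among those 61, and nothing is read from that count since it is how they were chosen. By the lead over the highest other sample, TFF3 was the first of 1028 named genes, CA6 the fifth, KLK1 the sixth, SLPI number 51 and SPINT2 number 54. WFDC2, LALBA and CCL28 held the places between, and were picked here for that rank after their values were seen. WFDC2 is an epithelial whey-acidic-protein inhibitor related to SLPI, LALBA is the milk protein alpha-lactalbumin, and CCL28 is a chemokine of mucosal and gland epithelium.

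Lists of genes of glands, proteases and other cell types were looked at beside the 6. For the counts below, 61 of 1028 named genes (5.93%) well above background on both Rosco samples were over 2-fold above each other sample. A count that holds 1 of the 6 genes includes a gene chosen for this trait, so the count without it is given too. Of 4 named genes of salivary and serous secretion, 3 were over 2-fold above each other sample in both Rosco samples, namely LTF (lactoferrin), PIGR (the receptor that carries immunoglobulin A into secretions) and CANF2 (a lipocalin allergen of dog saliva). CANF2 had 3.52 in the biopsy and 3.61 in the second resistant aspirate, against a median of −8.07 over the other 13. LTF had 3.71 and 3.94 in the same 2 samples, against 2.49 in the Rosco skin and −0.76 or less elsewhere. PIGR had 1.51 and 2.71 there, against 0.30 or less. ODAM, the fourth, was well above background in 1 of the 2 samples and in none of the other 13. The summed level of the list was 4.78 to 5.09 in the 2 samples, against −0.43 to 2.66 in the other 13.

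Of 6 named genes of gland ion and water transport, 4 were over 2-fold above each other sample, and all are parts of the machinery that secretes salt and water. CFTR, the chloride channel, had 0.98 in both samples, against a median of −7.96 over the other 13. KCNMA1, a potassium channel, had 0.26 and 0.86, against −5.11 or less. FXYD2 and ATP1B1, subunits of the sodium pump or its regulators, had 3.45 and 5.17 in the biopsy and 3.19 and 5.69 in the aspirate, against at most 0.48 and 2.70. The water channel AQP1 did not rise above the others, at −5.01 and −4.31 against a median of −4.89. AQP5 and other genes of this list have no named probe and were not analysed here.

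The trefoil and mucus genes split. Of 5 named genes 4 were over 2-fold above each other sample, which are TFF3, TFF2, MUC1 and ST6GALNAC1. Without TFF3 the count was 3 of 4. TFF2 had 2.36 and 2.13 in the 2 Rosco samples, against −0.21 or less. MUC1, a membrane mucin, averaged −1.03 in the 2 samples, against −4.70 or less, and ST6GALNAC1, which adds sialic acid to mucin sugars, had −1.14 and −0.81, against −2.73 or less. TFF1, the remaining trefoil gene, had −3.56 and −2.10, against a median of −3.04. In the order of RefSeq genes TFF2 is the next gene after TFF3 and TFF1 the one after that, so the neighbours differ in whether they followed TFF3.

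Of 13 named kallikreins and trypsin-like proteases, KLK1 was the only gene over 2-fold above each other sample, and it was chosen for this trait. Without KLK1 the count was 0 of 12, beside 5.93% of named genes, and nothing is read from it. Of the 13 genes, 7 were well above background on both Rosco samples. HGFAC also lay above each other sample in both, but by less than 2-fold (0.63 for the lower of the 2). KLK2, KLK5, KLK6, KLK8, KLK9 and KLK10, of which several work in the outer layers of skin, were highest in the Rosco skin. KLK2 had −8.07 and −7.85 in the 2 Rosco samples, not well above background, against 0.85 in the Rosco skin. KLK2 lies 5 genes from KLK1 in the order of RefSeq genes, and the genes between them have no named probe.

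Of 13 named protease inhibitors, SLPI, SPINT2, WFDC2 and SERPINA1 were over 2-fold above each other sample. Without SLPI and SPINT2 the count was 2 of 11. WFDC2 had 7.04 and 6.95 in the 2 Rosco samples, against −1.77 or less, and was not well above background in 9 of the other 13 samples. SERPINA1, alpha-1-antitrypsin, had 3.30 and 3.54, against 1.37 in the Rosco skin. PI3 (elafin), an inhibitor of neutrophil elastase related to SLPI, went the other way, with −0.30 and −0.25 in the 2 Rosco samples against 0.59 to 6.30 in the other 13. PI3 lies 3 genes from SLPI in the order of RefSeq genes, and it was brightest in both skins, at 6.12 in Rosco and 6.30 in MalcolmX, whereas SLPI separated these skins.

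Of 5 named carbonic anhydrases, CA6 and CA2, the widespread cytosolic enzyme, were over 2-fold above each other sample. Without CA6 the count was 1 of 4. CA2 had 2.30 and 2.13 in the 2 Rosco samples, against 0.19 or less. CA3, a muscle and fat enzyme, had −0.33 and −0.94, below the 6.62 of the Rosco skin. Among secreted lectins and antimicrobials only LTF of 7 named genes met the criterion. Lists of other tissues were set beside the 5.93% of named genes that met the criterion. In lists this short a count of 0 is near that share and is not read as a result. Only 4 of 6 exocrine pancreas, 2 of 6 thyroid and 6 of 8 keratinocyte genes were well above background on both samples. None of 6 named exocrine pancreas genes met the criterion. Colipase (CLPS) was lower than its median over the 13 others, with −3.19 and −2.70 against −1.86. None of 6 thyroid genes met it, and thyroglobulin (TG) was not above background. None of 8 keratinocyte genes met it, and KRT1, the keratin of the upper epidermis, had −6.86 and −6.37, against 8.26 and 5.36 in the skins of Rosco and MalcolmX. Both named mammary genes did, LALBA with 3.62 and 3.21 against −4.56 or less, and CSN2 (beta-casein) with −4.77 and −4.55 against −7.49 or less.

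Of 11 named genes of simple epithelium, CLDN3 and CLDN2 were over 2-fold above each other sample, while others were shared with the Rosco skin. The keratin KRT19 had 5.02 and 5.19 in the 2 Rosco samples and 4.62 in that skin, against a median of −7.34 over the 13. E-cadherin (CDH1) had 3.93 and 3.51, against 3.15 in that skin. The median gap between the 2 Rosco samples and the median of the other 13 was 4.63 for this list, 4.19 for salivary secretion, 6.02 for ion and water transport, −3.37 for B cells, −0.67 for keratinocytes and 0.13 over all named genes. The muscle list also had a raised median, 3.74, though none of its 6 genes exceeded all other samples. Skeletal muscle MYL2 had −1.65 and −0.51 in the 2 Rosco samples, against 3.68 in the MalcolmX skin and a median of −6.70. ADIPOQ, the fat cell hormone, had −3.21 and −3.03, against 5.27 in the skin of Rosco and 4.58 in that of MalcolmX. The part of these other tissues in the levels of the 6 genes was not tested.

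The 10 named genes whose profile was most like the mean standardised profile of the 6 (Pearson r over 15 arrays) were SRD5A2, CLDN3, BDKRB1, LALBA, ARSL, TFF2, MUC1, TVP23B, MAGEB10 and HCRTR2, with r of 0.98 to 0.94. SRD5A2, a steroid 5-alpha-reductase, had −2.90 in the Rosco biopsy and −3.82 in the second resistant aspirate, and was not well above background on any of the other 13 arrays. CLDN3, a tight junction claudin, had 2.88 and 2.70, against 0.14 or less. BDKRB1, a receptor for the kinin peptides that kallikrein frees, had 2.97 and 3.15, against −0.54 or less. These correlations rest on the 2 Rosco samples. For REG3A alone the most similar named genes were CD38 (r = 0.86), ABCB1 (0.86), CD8A (0.84), SPACA3 (0.83) and CAMP (0.83). REG3A was well above background on 4 of the 15 arrays, so these correlations rest on few samples. Each of these genes was highest in the failed-chemotherapy or the remission aspirate. SPACA3 was well above background on only 1 of the other 13 arrays. CD38 is a surface enzyme of plasma cells and activated lymphocytes, CD8A marks cytotoxic T cells, ABCB1 is a drug efflux pump and CAMP is the neutrophil cathelicidin.

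Among themselves the genes moved together less once the 2 Rosco samples were left out. CA6 and SLPI had r = 0.93 over 15 arrays, 0.77 over the 13 others and 0.45 over the 12 that also leave out the Rosco skin. SLPI and SPINT2 had 0.85, 0.56 and −0.25 over the same sets. SLPI and REG3A went the other way, with −0.03 over 15 arrays, 0.21 over 13 and 0.81 over 12. These are descriptions over arrays that share dogs and slides, 8 of the 12 arrays for SLPI and REG3A being below the background limit of the REG3A probe. Neutrophil signal was uneven over the same samples. CAMP was at 1.37 in the remission aspirate, 0.74 in the failed-chemotherapy aspirate and 0.48 in the MalcolmX biopsy, the 3 samples that lead SLPI and REG3A among the 12, and at −0.85 or less in the other 12 arrays. The summed level of the 6 named neutrophil genes was 0.46 to 0.57 in the 2 original Rosco samples, −0.07 to 2.54 in the relapse aspirates and 2.81 to 4.60 in the 2 earlier Rosco aspirates. It was 1.93 in the MalcolmX biopsy, below relapse aspirate 2 (2.54) and the Jake (2.16), Dog Y (2.09) and Thai (2.03) biopsies. So the sum, unlike CAMP, did not place the MalcolmX biopsy among the 3 highest samples. The part of neutrophils in SLPI and REG3A was not tested.

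**Figure D2:**
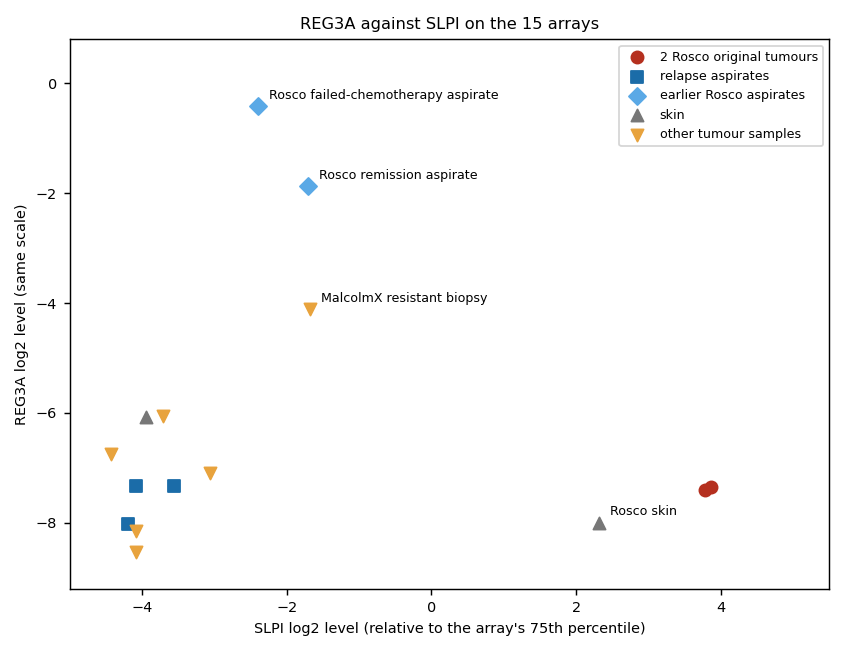
REG3A level against SLPI level (first probe of each, log2, relative to the 75th percentile of the array), 1 point per array. The 2 original Rosco tumours and the Rosco skin lie at high SLPI and low REG3A, and the remission aspirate, the failed-chemotherapy aspirate and the MalcolmX biopsy lie at intermediate SLPI and higher REG3A than the other 9.

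The comparisons that leave out the 2 Rosco samples were tested with limma over all targets. The first set the 3 relapse aspirates of Rosco against the 2 earlier aspirates of that dog, taken at failed chemotherapy and in remission. REG3A and SLPI were lower after relapse, CA6 was lower by a smaller and less stable difference, and SPINT2 was higher. In all, 4 of the 5 genes tested passed an adjusted p of 0.05, beside 8554 of 25381 targets (33.7%), 4409 higher (17.4%) and 4145 lower (16.3%). With so many targets past the threshold, 4 of 5 is not read as a result about these genes as a group. The groups did not overlap for any of the 5, as for 60.3% of targets. The 5 samples are repeated aspirates of 1 dog, so the p-values measure the spread between these samples and not between dogs.

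REG3A on its first probe had −7.33, −7.33 and −8.02 in the relapse aspirates, against −0.41 and −1.87 in the earlier ones. The relapse samples were all at background and the earlier ones both above it. REG3A thus entered the test only through the earlier aspirates, the group where it was high. Its p-values depend on that entry and are not read as support for the direction. The difference was −6.42 (SE 0.46, adjusted p = 0.00052, limma), and since no relapse value was well above background the bound is at least 29.3-fold lower. The second probe differed by −4.54, with relapse aspirate 3 above background at −4.29. Within slide 3 the difference was −6.92 (1 against 1) and within slide 4 it was −5.80 (2 against 1). The call held under all 14 alternatives run for it, with adjusted p from 0.00012 to 0.012, and the normexp background correction shrank the difference to −2.29.

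SLPI had −4.08, −3.56 and −4.19 in the relapse aspirates, against −2.40 and −1.71 in the earlier ones. All 5 values were above background. The difference was −1.89 (SE 0.30, adjusted p = 0.0057, limma), and the second probe gave −2.62. It was −1.68 within slide 3 and −2.17 within slide 4. Over the 15 alternatives the adjusted p ran from 0.0029 to 0.50. It missed the threshold only with 1 fit of all 15 arrays, and the normexp background correction shrank the difference to −1.10.

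SPINT2 moved the other way. It had −0.18, −0.15 and 0.45 in the relapse aspirates, against −1.03 and −0.87 in the earlier ones, a difference of 0.99 (SE 0.25, adjusted p = 0.027, limma). The second probe gave 0.92, and the difference was 0.85 within slide 3 and 1.02 within slide 4. CA6 had −5.19, −5.90 and −6.62 (the last not above background), against −4.68 and −4.05, a difference of −1.53 (SE 0.44, adjusted p = 0.041, limma). CA6 too entered the test only through the earlier aspirates, the group where it was higher, so its p-value is not read as support for the direction. The second CA6 probe was not above background in any of the 5. CA6 lost its call in 10 of 14 alternatives, with adjusted p from 0.022 to 0.48, among them leaving out relapse aspirate 2 (0.082) or 3 (0.055), the failed-chemotherapy aspirate (0.088) or the remission aspirate (0.23), and normexp shrank its difference to −0.57. SPINT2 lost its call in 5 of 15, with adjusted p from 0.015 to 0.46, among them leaving out the first relapse aspirate (0.052), the failed-chemotherapy aspirate (0.13) or the remission aspirate (0.11). KLK1 averaged −1.04 ± 0.24 in the relapse aspirates (SD, n = 3) and −0.09 ± 0.99 in the earlier ones (SD, n = 2) and was not called (difference −0.96, SE 0.42, adjusted p = 0.13, limma), although it passed with the slide as a block (−1.09, adjusted p = 0.042) and without the failed-chemotherapy aspirate (−1.65, adjusted p = 0.024). Without the remission aspirate KLK1 differed by −0.26, and over all alternatives the adjusted p reached 0.61. TFF3 was not well above background in any of the 5 and was not tested.

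The list counts below stand beside 17.4% of all targets called higher and 16.3% called lower. In lists this short, counts near those shares are not read as results. None of the 2 tested salivary genes and none of the 4 tested mucus genes passed. Of 4 tested transport genes 2 fell, among them ATP1B1 (−2.34). Of 6 exocrine pancreas genes 1 rose, the elastase CELA1 (0.72), and none fell. Of 5 tested kallikreins and related proteases, mast cell chymase CMA1 fell by 3.93 and neutrophil elastase ELANE rose by 0.93, and of 11 tested inhibitors SPINT2 rose and 3 fell, among them SLPI and SERPINF1 (−1.75). Of 5 carbonic anhydrases CA9, the enzyme induced by low oxygen, rose by 2.06, and CA6 and CA3 (−4.98, well above background in 1 of the 3 relapse aspirates) fell. Of 4 tested lectins and antimicrobials REG3A and CAMP (−2.90, adjusted p = 0.011, limma) fell. Of 6 tested neutrophil genes 2 fell, CAMP among them, and ELANE rose. The median difference over all targets was −0.08. Of 8 markers of T and NK cells 5 fell, led by CD8A (−6.42), CD28 (−5.35) and KLRD1 (−2.93). The plasma cell marker CD38 fell by 4.62. The summed level of the T and NK list was 0.88 to 1.77 in the relapse aspirates, against 3.97 to 4.54 in the earlier ones. Of 4 B cell genes CD40 (2.59) and MS4A1 (1.70) rose and BCL6 was at least 2.42-fold lower, and the summed level was 4.24 to 4.88 in the relapse aspirates, against 2.08 to 2.48 in the earlier ones. Keratinocyte genes fell in 4 of 6 tested, led by KRT2 (−1.73) among those measured on all 5 arrays, with a summed level of −1.48 to −0.76 against −0.14 to 0.06. Fibroblast and matrix genes fell in 4 of 9, led by THY1 (−4.58), DCN (−3.99) and BMP4 (−3.25), with a summed level of 4.79 to 4.97 in the relapse aspirates, against 7.29 to 7.55 in the earlier ones. The part of these cells in the REG3A, SLPI, CA6 and SPINT2 differences was not tested.

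**Figure D3:**
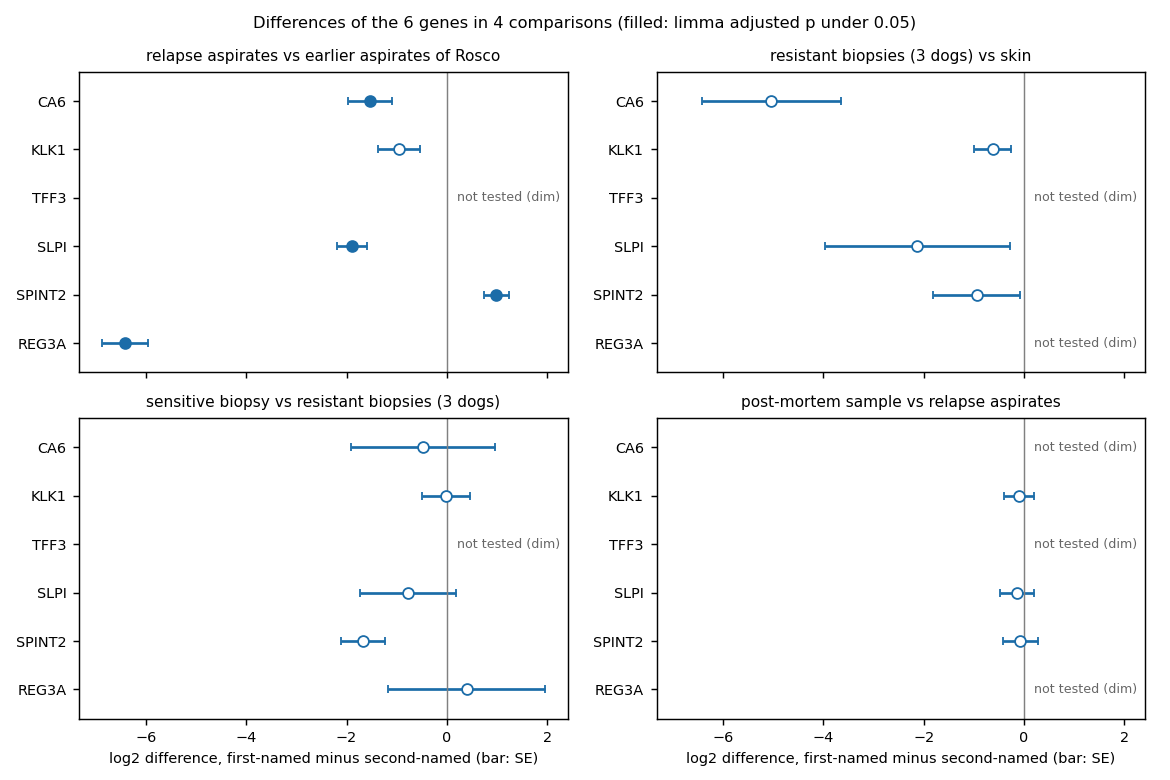
Difference (log2, first-named minus second-named group) of the 6 genes in the 4 tested comparisons, with bars of 1 SE. Filled points passed a limma adjusted p of 0.05 and open points did not. REG3A, at −6.42, is the lowest of the 4 filled points in the relapse comparison, and the other 3 panels hold none.

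The second comparison set the resistant biopsies of MalcolmX, Jake and Dog Y against the skins of MalcolmX and Rosco. None of the 4 genes tested passed, beside 3125 of 24443 targets (12.8%), 1498 higher (6.13%) and 1627 lower (6.66%). At an unadjusted p of 0.05 the count was 8858 targets and 1 of the 4 genes, CA6. CA6 was well above background on both skins but on only 2 of 3 biopsies. It thus entered the test only through skin, where it was higher, and its p-values are not read as support for the direction. The CA6 level, −5.18 ± 1.91 over 3 biopsies against −0.15 ± 2.26 over 2 skins (SD), gave a difference of −5.04 (SE 1.38, adjusted p = 0.066, limma; range 0.019 to 0.91 over the alternatives). The groups did not overlap for CA6 and KLK1, 2 of the 4 genes, as for 57.4% of targets. KLK1 differed by −0.63 (SE 0.37, adjusted p = 0.27), with the second probe at 0.82, SLPI by −2.13 (SE 1.85, adjusted p = 0.43) and SPINT2 by −0.94 (SE 0.87, adjusted p = 0.46). TFF3 and REG3A were above background in 1 of 3 biopsies each and in neither skin, and were not tested.

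The sign of SLPI and SPINT2 depended on the skin. SLPI had −1.67, −4.08 and −3.07 in the biopsies of MalcolmX, Jake and Dog Y, against 2.32 in the Rosco skin and −3.95 in the MalcolmX skin, so the groups overlapped. Against the Rosco skin alone the difference was −5.26 for SLPI (adjusted p = 0.031, limma) and −2.42 for SPINT2 (adjusted p = 0.030), and against the MalcolmX skin alone it was 1.01 and 0.53, with adjusted p up to 0.99 over the alternatives of both genes. CA6 also passed against the Rosco skin alone (−6.63, adjusted p = 0.047). These 3 p-values assume that a lone skin varies like the 3 biopsies, whereas the 2 skins differed with an SD of 4.43 for SLPI. Within slide 1, which holds the MalcolmX skin and the Jake and Dog Y biopsies, CA6 differed by −3.46, and within slide 2, which holds the Rosco skin and the MalcolmX biopsy, by −6.60. Skin markers also differed between the 2 skins, with a summed level of 8 named keratinocyte genes of 9.61 in Rosco and 6.78 in MalcolmX, and of 4 B cell genes of −0.54 and 2.75. Their part in CA6, SLPI and SPINT2 was not tested. The calls of this comparison rest on few samples, as no target passed without the Jake biopsy and 614 passed without Dog Y, against 3125 with all 5 samples. With all 5, all 8 keratinocyte genes and 6 of 13 protease inhibitors were called lower in the biopsies, beside 6.66% of all targets. The inhibitors were led by SPINK5 (−8.07), SERPINF1 (−4.53) and WFDC2 (−4.00, well above background in 1 of the 3 biopsies). Of 2 tested salivary, 5 transport and 3 trefoil or mucus genes none was called higher. This stands beside 6.13% of all targets called higher, and nothing is read from it. CA2 (−2.96) was lower, CA3 was called lower but was well above background in 1 of the 3 biopsies, and KLK5 was at least 51.8-fold lower.

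The sensitive biopsy of Thai was set against the same 3 resistant biopsies. No target passed of 26395 (0%), with 1566 at an unadjusted p under 0.05, and 1 array in 1 group borrows its spread from the other. SPINT2 was at −2.15 in Thai, against −0.51, −0.19 and −0.75 in the biopsies of MalcolmX, Jake and Dog Y. Thai was below all 3, and for 49.6% of targets Thai lay outside the range of the 3. SPINT2 gave a difference of −1.67 (SE 0.44, adjusted p = 0.72, limma). SLPI differed by −0.77 (SE 0.96, adjusted p = 0.99), CA6 by −0.48 (SE 1.44, adjusted p = 0.99), KLK1 by −0.03 (SE 0.48, adjusted p = 0.997) and REG3A by 0.40 (SE 1.57, adjusted p = 0.99). The second probe gave −1.62 for SPINT2 and −0.40 for KLK1, but 0.74 for SLPI, the opposite sign, with 2 of the 3 resistant biopsies above background. The Thai array was on another slide and scan day than the 3 others, so slide, dog and drug response cannot be told apart.

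The post-mortem sample of Rosco was set against the 3 relapse aspirates. No target passed of 27124 (0%), with 4129 at an unadjusted p under 0.05. KLK1 was at −1.15 after death, against −1.04 ± 0.24 (SD, n = 3) in the relapse aspirates, SLPI at −4.09 against −3.95 ± 0.34, and SPINT2 at −0.04 against 0.04 ± 0.36, each within the range of the relapse values, while 66.1% of targets lay outside it. The differences were −0.10 (SE 0.29) for KLK1, −0.14 (SE 0.34) for SLPI and −0.07 (SE 0.35) for SPINT2, and the second probes gave the opposite sign, at 0.07, 0.13 and 0.19 for the same genes. CA6 was not above background after death, at least 1.43-fold lower than the mean of the relapse aspirates, and TFF3 and REG3A were at background in all 4 samples on the first probe. In none of the 6 other tumour samples of Rosco did CA6, KLK1 or TFF3 come within 6 units of the 2 original samples.

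Metformin, a diabetes drug, was given before several of the samples, and 2 dogs have a pair around it, without replicates. In MalcolmX SLPI was at −4.42 in the aspirate after metformin and −1.67 in the biopsy before it, a difference of −2.75, and CAMP was at −3.73 and 0.48. In Rosco SLPI was at −1.71 in the remission aspirate after metformin and −2.40 in the failed-chemotherapy aspirate before it, a difference of 0.69, and CAMP was at 1.37 and 0.74. KLK1 differed by 0.19 in MalcolmX and 1.40 in Rosco on the first probe, and by −0.96 and 0.34 on the second. REG3A differed by −1.46 in Rosco, with both samples above background, and in MalcolmX it was above background only before metformin. CA6 differed by 0.64 in Rosco and was above background only before metformin in MalcolmX. SPINT2 differed by −0.25 in MalcolmX and 0.16 in Rosco. In the MalcolmX pair 9.07% of 23183 targets differed over 2-fold, and in the Rosco pair 4.52% of 24807. The MalcolmX pair also sets an aspirate against a biopsy, which cannot be told apart from the drug. The Rosco pair also sets remission against failed chemotherapy and slide 4 against slide 3, which cannot be told apart from the drug either.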

How the data were processed

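15 one-colour Agilent arrays were read as deposited. Scanner software Agilent Feature Extraction 11.0.1.1 gave the processed intensity of each spot, background-subtracted within its array and with no scaling across arrays, per the file headers. In the deposited series table, values are the spot median minus the local background median, an intensity on a linear scale (678300 of 678300 cells equal within 0.01). Flags of other deposited columns, per the file headers, are scores of 0 or 1 per spot. Per the labels' protocols, the Low Input Quick Amp kit was used. Between 2 and 50 outlying spots per array were left out, and 0 were saturated. The arrays lay on 4 slides read on 2 scan days.

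The level is log2 of the processed intensity minus the array's 75th percentile. Spots of 1 probe were averaged. RefSeq accessions named 2186 of 43603 probes (5.01%), giving 1357 symbols. A target with several probes took the probe with the highest mean. The build of the gene table differs from that of the array, so only the order of genes was used, and no sequence is printed. Tests used limma 3.58.1 in R 4.3.3 (lmFit, eBayes), two-sided, Benjamini-Hochberg over all targets tested, threshold 0.05, on targets that the flag passed on each array of 1 group or more. The code was tested on simulated data. A fold against a group at background is a bound, written "at least", with the dim side set per array at its own signal or at the dimmest flagged-bright probe, whichever is brighter. Precision is limited by how few arrays a group has. Groups came from the labels.

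The members and the 21 lists (428 genes, 128 with a named probe) were chosen with earlier results of these data known, and so were the tests. Named genes are the 6 members, the 10 most similar genes, up to 3 genes per list with the largest gap in the 2 Rosco samples, up to 3 past the threshold per list and comparison, and MS4A1, KRT1 and ADIPOQ. Others were named after their values were seen, to complete a list or a count. Some list genes are not reported here.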

Additional observations from a re-analysis of the deposited data

Results flagged for a closer look

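Within the 4 resistant biopsies, the Rosco biopsy stood far from the other 3 for KLK1 (7.29, gap over range 0.92), TFF3 (7.74, 0.86) and SPINT2 (3.43, 0.87). This is one of the samples for which the genes were chosen, so the gaps are a description and no test.

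Among genes whose first probe was well above background throughout both metformin pairs, 2 had differences of opposite sign in the 2 dogs. SLPI differed by −2.75 in MalcolmX and 0.69 in Rosco, and SPINT2 by only −0.25 in MalcolmX and 0.16 in Rosco. The second SPINT2 probe gave −0.02 and 0.14. The second KLK1 probe also had opposite signs, at −0.96 and 0.34, unlike its first. The difference between the dogs was not tested, as each has 1 sample on each side.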

How the results depend on the processing

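The lead of the 2 Rosco samples over the highest other sample kept its sign for all 6 genes under 5 alternatives. It moved for KLK1 to 7.89 with the mean of all probes, for TFF3 to 9.54 with normexp, and for REG3A to −4.89 with the series table and −2.59 with normexp. In the relapse comparison the count of 8554 fell to 2643 with 1 fit of all 15 arrays. Leaving out samples gave 3772 to 9760, with 3772 without the remission aspirate, 5533 without the failed-chemotherapy aspirate and 5641 without the first relapse aspirate. Against skin the 3125 calls became 296 with normexp, 1712 with no filter on dim probes, 8056 with 1 fit of all 15 arrays, 104 with the Rosco biopsy added and 152 with that biopsy and the dog as a random block. Leaving out samples gave 0 to 3732, with 0 without the Jake biopsy, 614 without Dog Y, 1212 without the MalcolmX biopsy and 1667 without the Rosco skin. The sensitive comparison gave 27 calls with 1 fit of all 15 arrays. The post-mortem comparison gave 144 with normexp and 14 with the mean of all probes, and 0 to 431 without 1 relapse sample (107 without the first, 431 without the third). Sign changes concerned uncalled differences. Against skin, KLK1 became 0.10 with the mean of all probes, 1.54 with the Rosco biopsy and 1.95 with the dog block. SLPI became 0.042 with the dog block and ran from −5.26 to 1.01 when samples were left out. SPINT2 became 0.034 with the Rosco biopsy and 0.23 with the dog block, and ran from −2.42 to 0.53. In the sensitive comparison, leaving out samples gave −1.44 to 0.47 for CA6, −0.16 to 0.19 for KLK1 and −0.45 to 1.57 for REG3A. KLK1 became 0.0097 with scaling on the median, and REG3A −1.33 with the series table and −0.25 with normexp. In the post-mortem comparison, leaving out samples gave −0.24 to 0.0067 for KLK1, −0.27 to 0.051 for SLPI and −0.18 to 0.13 for SPINT2. KLK1 became 0.16 and SPINT2 0.14 with the slide as a block, SLPI 0.0087 with normexp, and SPINT2 0.060 with the mean of all probes. The cause was not tested. A scan-day block could not be fitted in any of the 4 comparisons, nor a slide block in the sensitive one. No paired analysis was possible because the labels give no replicate number that the groups compared share, and only MalcolmX gave both a biopsy and a skin to the comparison with skin. The fit that adds the Rosco biopsy, with the dog as a random block, is the nearest to one. Signals of TFF3, REG3A and the second CA6 probe lie at background on most arrays, so their differences there have no order.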
